A study of Mus musculus with 12 samples.

Results

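Nuclear genes of the oxidative phosphorylation machinery were examined in T cells with and without the ER stress sensor PERK. The genes were chosen by name and by whether they could be read: the exon positions of each entry in the deposited count table were laid, as printed, on the GENCODE M21 exons of GRCm38, and entries whose overlap of 50 bp or more fell on a single gene, small RNAs set aside, were summed under that gene. The sums are called placed counts. Of 100 protein-coding genes with symbols starting Nduf, Sdh, Uqcr, Cox4 to Cox8 or Atp5, or named Cyc1 or Cycs, 25 had a placed entry, and all 25 held the required 10 or more placed counts over 12 libraries. They were 25 of 5904 such genes in the series. The symbols also took in genes that are not subunits: Ndufaf4 and Ndufaf6 encode assembly factors of complex I, and Sdhaf2 and Sdhaf3 encode assembly factors of complex II.

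Oxidative phosphorylation passes electrons from NADH and succinate through respiratory complexes I to IV in the inner mitochondrial membrane to oxygen, and complex V, the ATP synthase, uses the resulting proton gradient to make ATP. Most subunits are encoded in the nucleus and imported, and a few come from mitochondrial DNA, so both genomes contribute to complexes I, III, IV and V. Activated T cells enlarge their mitochondrial mass and respiration while also raising glycolysis.

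T cells came from spleens of WT mice or of PERK-cKO mice, which the study's methods describe as PERK fl/fl animals crossed with CD4-Cre mice on the B6 background. The Cre is driven by Cd4 elements, which act in developing T cells of both lineages, so other cells in a culture keep PERK. Cells of each genotype received antibodies to CD3 and CD28 over 3 days, here called polyclonal, or were kept for 4 days with allogeneic antigen-presenting cells (APCs), here called allogeneic, with 3 libraries in each of 4 groups. The labels give no age, no strain for the APCs and no statement that the libraries came from separate animals, so the spread between libraries may be technical, and the polyclonal time is given differently in the study's figure legend. The questions were how PERK loss altered these genes under each stimulation, and whether it did so differently.

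Libraries held 3132702 to 4631908 counts, of which 1551451 to 2300870 were placed. WT polyclonal replicate 1 stood apart: it differed from the other two of its group by 41.5 and 47.5 in chi-square per gene, against 3.2 to 11.9 for all other replicate pairs. The targeted gene Eif2ak3, which encodes PERK, had 44.7 to 80.9 CPM (placed counts scaled to a common library size) in WT and 45.8 to 51.6 in PERK-cKO after polyclonal stimulation, and 92.5 to 107 in WT and 67.3 to 74.6 in PERK-cKO after allogeneic stimulation. Whether the stretches read for Eif2ak3 lie in the deleted part is not known, so these levels do not check the labels. The 4 Y-linked genes had sums of 3335 to 4716 counts in WT allogeneic and 0 counts in the other 9 libraries, so animal sex, or the sex of APCs, cannot be told apart from that group. The T cell markers placed (7 of 14 listed) summed to 4846 to 7143 CPM across all libraries. The macrophage and monocyte markers placed (3 of 12) summed to 890 to 1100 CPM in PERK-cKO allogeneic libraries and 46.4 to 61.6 in WT allogeneic libraries, and the basophil and mast cell markers (5 of 8) to 2965 to 3212 and 139 to 154, while after polyclonal stimulation these sums were at most 1.81 and 35.6. The B cell markers (2 of 8) summed to 195 to 225 CPM in PERK-cKO allogeneic, 91.1 to 120 in WT allogeneic and 9.58 to 21.8 in polyclonal libraries. In these bulk samples, fewer cells of a type and less RNA per cell cannot be told apart.

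The 25 genes were read to very different extents. Placed entries covered at least 99% of the exon bases of 5 genes, namely Ndufa4, Ndufa5, Ndufaf4, Ndufaf6 and Sdhaf3, and under 10% of those of 8 genes. The others were read over shorter stretches, mostly through entries listed under a neighbouring gene. Uqcrc1 (chr9:108936633-108949623), for example, had 17829 placed counts from an entry listed as Plxnb1, over 1410 bp of which 719 were coding, while the entry listed under its own symbol had 8 counts. For Ndufv1 the reverse held, with 3880 placed counts from an entry listed as Aldh3b3 and 24410 in the entry of its own symbol. Cox5a had 6503 counts through an entry listed as Lman1l that overlay 55 coding bases at chr9:57521361-57521415 of GRCm38. Such an entry can also hold reads from its other bases: the Cox5a stretch was 3.3% of its entry. Only 6 genes were read from an entry bearing their own symbol. Depth ran from 28 placed counts over 12 libraries for Cox7a1 to 17829 for Uqcrc1, with 16 genes at 1000 or more and 3 genes under 100.

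**Figure D1:**
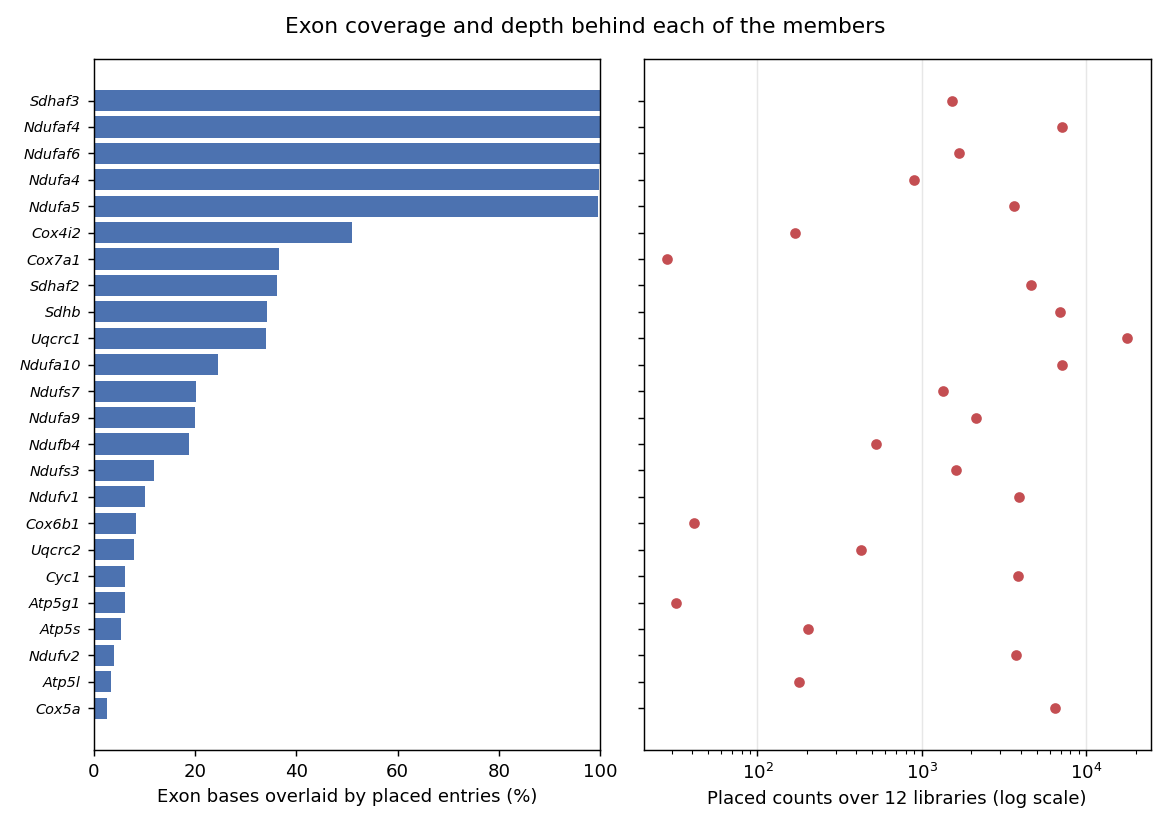
For the genes shown, bars give the percentage of exon bases overlaid by placed entries and points give placed counts over 12 libraries on a log axis. Ndufa4, Ndufa5, Ndufaf4, Ndufaf6 and Sdhaf3 were read nearly whole, while Cox5a had 6503 counts over 2.6% of its exon bases.

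Per kilobase of overlaid exon, levels can be set side by side for the 5 genes read nearly whole. Ndufa5, an accessory subunit of complex I, had the highest group means, 124.5 to 190.6 CPM per kb. Ndufaf4 followed with 63.1 to 104.4 and Ndufaf6 with 41.5 to 80.6. Ndufa4, once assigned to complex I and now placed with cytochrome c oxidase, had 19.5 to 32.3. Sdhaf3, which helps mature the iron-sulphur subunit of complex II, was lowest at 9.5 to 17.5 CPM per kb.

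Nuclear respiratory genes are known to carry sites for NRF1, for ETS factors such as GABP and for YY1. RefSeq promoter windows of GRCm38.p6, from 250 bases before to 50 after the start, were found for 20 of the 25 genes. Cox4i2, Cyc1, Ndufaf6 and Uqcrc2 were among those with no matched window. TGCGCA, the core of the NRF1 site, which reads the same on both strands, was in the windows of 7 of 20 genes (35.0%), against 8.8% of all 27025 genes with a window. CCGGAAG, an ETS family motif, was on either strand in 6 (30%) against 9.9%. ATGGCG, the YY1 core, was on either strand in 5 (25%) against 10.2%. The shares to compare with are over all genes with a window, with or without counts here. No share among genes with counts was taken, so the gaps may not be particular to these genes. A match describes letters in a window and is not a bound site. Of the 7 genes with TGCGCA, 2 were called higher in PERK-cKO cells after polyclonal stimulation and 5 were not called, where 7 of all 22 members tested and 16% of all genes tested were called higher. The 3 promoters below belong to Ndufaf4 and Uqcrc1, which both rose in PERK-cKO cells after polyclonal stimulation, and to Sdhaf3, which did not pass the test there. TGCGCA is in capitals, and each sequence runs 5′ to 3′ along the gene.
Ndufaf4, chr4:24897833-24898132, plus strand: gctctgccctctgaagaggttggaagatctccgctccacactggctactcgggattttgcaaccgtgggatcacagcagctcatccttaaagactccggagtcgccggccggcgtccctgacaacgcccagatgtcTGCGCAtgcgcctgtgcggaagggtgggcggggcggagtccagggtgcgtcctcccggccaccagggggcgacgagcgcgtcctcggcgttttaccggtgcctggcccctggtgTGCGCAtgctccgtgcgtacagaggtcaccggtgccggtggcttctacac
Uqcrc1, chr9:108936398-108936697, plus strand: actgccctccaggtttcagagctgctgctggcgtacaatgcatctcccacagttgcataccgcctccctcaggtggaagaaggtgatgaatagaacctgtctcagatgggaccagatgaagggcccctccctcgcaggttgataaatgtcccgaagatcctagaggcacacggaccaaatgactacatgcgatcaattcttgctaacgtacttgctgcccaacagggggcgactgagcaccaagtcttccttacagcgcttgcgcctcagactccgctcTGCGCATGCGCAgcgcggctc
Sdhaf3, chr6:6955768-6956067, plus strand: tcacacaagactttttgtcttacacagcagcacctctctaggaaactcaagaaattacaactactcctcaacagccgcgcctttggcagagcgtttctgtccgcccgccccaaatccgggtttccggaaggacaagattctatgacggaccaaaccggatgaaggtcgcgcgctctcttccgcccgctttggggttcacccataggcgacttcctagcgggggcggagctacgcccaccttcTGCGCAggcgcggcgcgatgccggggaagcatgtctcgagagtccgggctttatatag
In the Ndufaf4 window TGCGCA began 114 bases before the start and again at the start base. In the Uqcrc1 window the matches began 29 and 35 bases after the start and abut each other. In the Sdhaf3 window the match began 8 bases before the start. The other windows with TGCGCA were those of Atp5l, Ndufa5, Ndufa9 and Ndufb4.

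After polyclonal stimulation, 7 of the 22 genes tested rose in PERK-cKO cells and 1 fell, while of all 3935 genes tested 16% rose, 16% fell and 32.0% were called in either direction. Both complex I assembly factors, 2 of 3 complex III genes, 1 of 3 complex IV genes and 2 of 9 complex I subunits rose. None of the complex II genes, their assembly factors or the 2 tested complex V genes passed. The median log2 fold change of the 22 was 0.05, against 0.00 over all genes tested. Calls are from edgeR's quasi-likelihood test at a Benjamini-Hochberg adjusted p under 0.05 over all genes tested. Genes are printed library by library partly because their groups did not overlap, so a lack of overlap adds no support to a call.

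Ndufaf4 (chr4:24898083-24905001), a complex I assembly factor, had 227, 217 and 295 CPM in the WT polyclonal libraries and 479, 349 and 394 in PERK-cKO. All PERK-cKO libraries lay above all WT libraries. Its log2 fold change was 0.71 (SE 0.127, edgeR adjusted p = 0.000473). Ndufaf6 (chr4:11051045-11076205, minus strand), another assembly factor of the complex, had 79.8, 66.5 and 63.1 CPM in WT and 115, 102 and 81.5 in PERK-cKO. These groups met closely without overlapping, and the log2 fold change was 0.50 (SE 0.145, adjusted p = 0.0145). Without PERK-cKO polyclonal replicate 1 it was 0.36 and missed the threshold (adjusted p = 0.0984).

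Uqcrc1, which encodes a core protein of complex III, had the most counts of the 25. It had 617, 712 and 666 CPM in WT and 988, 968 and 928 in PERK-cKO. The groups were well apart, with a log2 fold change of 0.52 (SE 0.0806, adjusted p = 0.000159). Cyc1 (chr15:76343523-76346260), encoding cytochrome c1 of the same complex, had 120, 146 and 139 CPM in WT and 203, 182 and 189 in PERK-cKO. Here too every PERK-cKO library was above every WT library, and the log2 fold change was 0.49 (SE 0.103, adjusted p = 0.00179). The other core protein gene, Uqcrc2, had 23.9, 25.7 and 23.1 CPM in WT and 23.6, 27.7 and 26.0 in PERK-cKO. Its groups overlapped and its log2 fold change was 0.06, with a 95% interval from -0.34 to 0.46.

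Cox5a (chr9:57521274-57532426), a subunit of cytochrome c oxidase, had 196, 255 and 239 CPM in WT and 354, 323 and 316 in PERK-cKO. The groups did not overlap, and the log2 fold change was 0.51 (SE 0.104, adjusted p = 0.00143). Ndufa4, of the same complex, went the other way in value: 44.2, 26.2 and 58.9 CPM in WT and 32.5, 21.7 and 26.5 in PERK-cKO. Its groups overlapped, and a log2 fold change of -0.67 did not pass (SE 0.257, adjusted p = 0.0571). Cox4i2, the alternative form of the subunit COX4, did not pass either at 0.68 (SE 0.377, adjusted p = 0.192).

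Within complex I, Ndufa10 (chr1:92439010-92473860, minus strand), an accessory subunit, had 283, 272 and 266 CPM in WT and 357, 367 and 365 in PERK-cKO. The spread within each group was small beside the gap, with a log2 fold change of 0.39 (SE 0.0829, adjusted p = 0.00192). Ndufv1 (chr19:4007384-4012806, minus strand), which carries the flavin that accepts electrons from NADH, had 154, 181 and 137 CPM in WT and 227, 210 and 185 in PERK-cKO. The gap between the groups was narrow, and the log2 fold change was 0.38 (SE 0.115, adjusted p = 0.0184). It was between 0.29 and 0.38 and lost the call in 4 of 6 fits without 1 library, namely PERK-cKO replicate 1 or 2 or WT replicate 1 or 3 (adjusted p 0.0505 to 0.100). With entries taken as listed, under their printed symbols, which hold reads of other places, the change was -0.44 (edgeR adjusted p = 0.000365). Ndufv2, the iron-sulphur partner of NDUFV1, was the gene that fell: it had 151, 148 and 250 CPM in WT and 160, 101 and 109 in PERK-cKO. The groups overlapped, and the log2 fold change was -0.57 (SE 0.191, adjusted p = 0.0306). It lost the call without PERK-cKO replicate 2 or 3 or WT replicate 3, with values from -0.48 to -0.28, and DESeq2 did not call it (adjusted p = 0.189). Ndufa5, Ndufa9, Ndufb4, Ndufs3 and Ndufs7 had log2 fold changes from -0.26 to 0.09 with no call. Ndufa9, Ndufs3 and Ndufs7, core or accessory subunits of the complex, had group means of 51.1 to 101 CPM over the 4 groups.

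Without WT polyclonal replicate 1, the library that stood apart, 6 genes rose and 1 fell, and Ndufv1 was the increase that no longer passed (log2 fold change 0.34, adjusted p = 0.0847). These calls depend on the scaling. T cell markers were higher in PERK-cKO polyclonal libraries, at 6073 to 6412 CPM in sum against 4846 to 4983 in WT. Scaling to them moved the median over all genes from 0.00 to -0.32, and then 1 of the 22 genes rose, Ndufaf4 at 0.38, and 8 fell; the other 6 increases lay between 0.06 and 0.19 without a call, while the share of all calls that were higher went from 50.1% to 10.2%. That shift rested on Thy1, a surface protein of T cells, which had 3438 ± 105 CPM in PERK-cKO and 2190 ± 73.7 in WT (SD, n = 3). With Thy1 left out of the markers, a scaling added after the data were seen, the median was -0.01, 7 genes rose and 1 fell, and 47.5% of all calls were higher. A common factor moves every gene and the median alike, so the distance of the 7 genes from the median, 0.38 to 0.71, is the same under these scalings by construction. Basophil and mast cell markers summed to 30.3 to 35.6 CPM in PERK-cKO and 3.72 to 7.36 in WT polyclonal libraries, and NK cell markers (2 of 5) to 35.8 to 40.1 and 4.03 to 8.51. The NK cell sum was nearly all Klrd1, which activated CD8 T cells also express, with Ncr1 at no more than 1 count in any of these libraries. Cd8b1, a CD8 chain gene, had 18.9 ± 4.53 CPM in PERK-cKO and 6.04 ± 3.45 in WT (SD, n = 3), a log2 fold change of 1.63 (SE 0.384, edgeR adjusted p = 0.00413). Their part in the result was not tested.

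**Figure D2:**
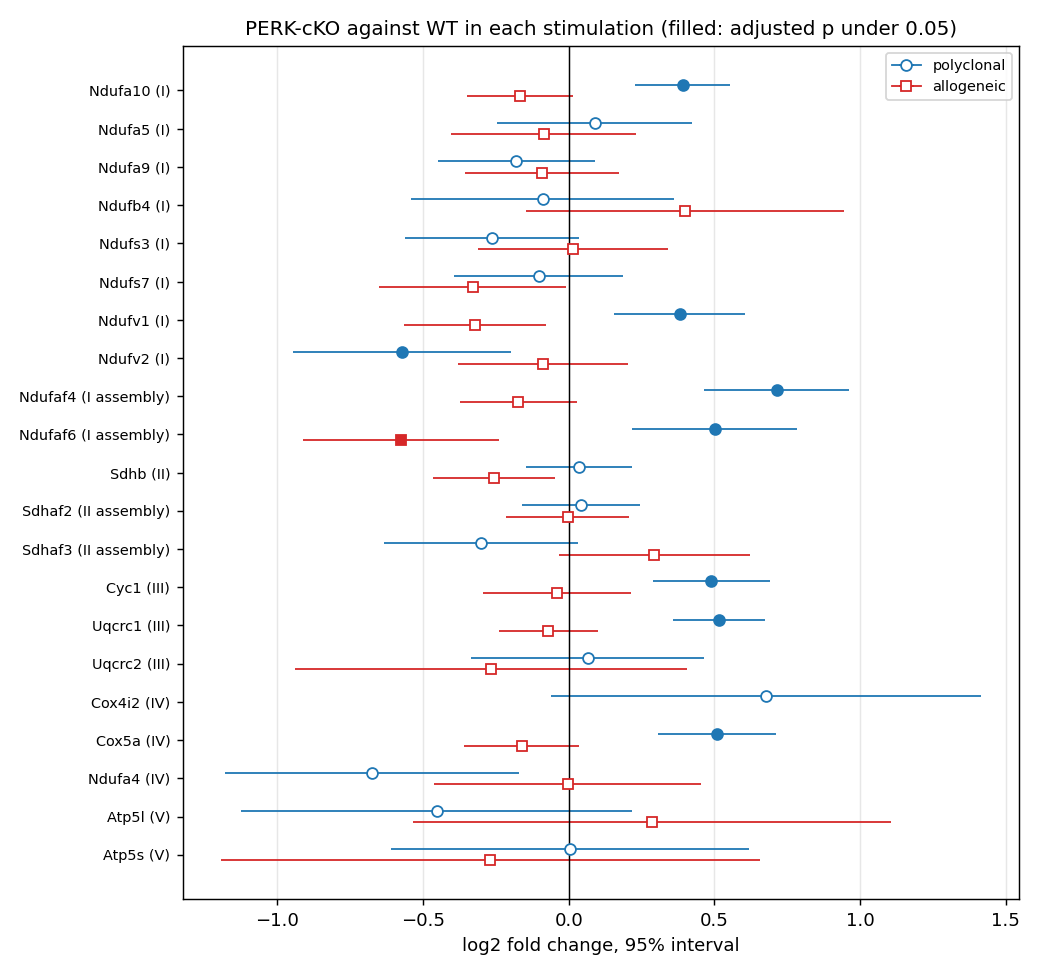
Log2 fold changes of PERK-cKO against WT with 95% intervals, for polyclonal (circles) and allogeneic (squares) stimulation, filled where the adjusted p was under 0.05. In the polyclonal comparison 7 values were called above 0, from 0.38 for Ndufv1 to 0.71 for Ndufaf4, and the only allogeneic call was Ndufaf6 at -0.58.

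After allogeneic stimulation, 1 of 21 genes tested fell in PERK-cKO cells and none rose, while of all 4091 genes tested 18.6% rose, 14.5% fell and 33.0% were called in either direction. The gene was Ndufaf6. At an unadjusted p under 0.05 there were 0 increases and 3 decreases, and DESeq2 also called 0 increases and 1 decrease. The median log2 fold change was -0.09, against -0.02 over all genes tested, and 16 of the 21 values were negative.

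Ndufaf6 had 67.9, 67.9 and 94.1 CPM in WT allogeneic libraries and 51.7, 59.5 and 42.5 in PERK-cKO. The groups did not overlap, and the log2 fold change was -0.58 (SE 0.172, edgeR adjusted p = 0.0117). The call was lost without PERK-cKO allogeneic replicate 3 (-0.47, adjusted p = 0.063) and without WT allogeneic replicate 3 (-0.38, adjusted p = 0.130). These were the fits with 0 calls; without PERK-cKO replicate 1, WT replicate 1 or WT replicate 2 there were 2 decreases, and without PERK-cKO replicate 2 there were 3. Ndufv1 had 193, 146 and 195 CPM in WT and 155, 133 and 138 in PERK-cKO. It overlapped between groups and its log2 fold change of -0.32 lay just outside the threshold (adjusted p = 0.0511). Sdhb, the iron-sulphur subunit of complex II, had 302, 394 and 350 CPM in WT and 279, 322 and 273 in PERK-cKO. These overlapped as well, with a log2 fold change of -0.26 (adjusted p = 0.0706).

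The other genes called after polyclonal stimulation had the following values here. Ndufaf4 had 284, 318 and 351 CPM in WT and 264, 305 and 277 in PERK-cKO, a log2 fold change of -0.17 with a 95% interval from -0.37 to 0.03. Uqcrc1 had 758, 824 and 755 CPM against 782, 737 and 702, a change of -0.07 with an interval from -0.24 to 0.10. Cox5a had 300, 318 and 312 CPM in WT and 285, 301 and 243 in PERK-cKO, a change of -0.16 from -0.36 to 0.04. In all 3 genes the groups overlapped. Cyc1 had 178, 165 and 188 CPM against 209, 165 and 138, a change of -0.04 with an interval from -0.29 to 0.21. Ndufa10 had 335, 348 and 318 CPM in WT and 298, 293 and 297 in PERK-cKO. Its groups did not overlap, although its log2 fold change of -0.17 did not pass (SE 0.0928, adjusted p = 0.178).

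Macrophage and basophil markers were far higher in the PERK-cKO allogeneic libraries, as given above, and T cell markers summed to 6101 to 6704 CPM there against 7053 to 7143 in WT. Dendritic cell markers (3 of 8) summed to 46.0 to 62.3 CPM in PERK-cKO and 1.79 to 8.02 in WT allogeneic libraries. NK cell markers (2 of 5) summed to 40.1 to 67.2 and 17.8 to 28.9 CPM. The part of any of these in the values was not tested. Under scaling to the T cell markers the median of all genes moved from -0.02 to 0.12, the share of calls that were higher went from 56.1% to 75.1%, and Ndufaf6, at -0.43, no longer passed (adjusted p = 0.0716). With Thy1 left out of the markers the median moved to 0.44, 95.6% of calls were higher, and 13 of the genes tested were called higher and none lower, with Ndufaf6 at -0.11.

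The test of the difference itself, the interaction of genotype and stimulation over all 12 libraries, called 7 of 22 genes, all with a lower PERK-cKO effect after allogeneic than after polyclonal stimulation, while of all 4400 genes tested 17.2% were called in that direction, 16.7% in the other and 34.0% in either. They were Ndufaf6, Ndufaf4, Ndufv1, Cox5a, Uqcrc1, Ndufa10 and Cyc1. The interaction shares its libraries with both comparisons of genotypes. No gene was called the other way, by edgeR or DESeq2, and 1 was positive at an unadjusted p under 0.05. The median was -0.24, against 0.01 over all genes tested.

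The largest interaction was that of Ndufaf6, at -1.09 (SE 0.233, edgeR adjusted p = 0.000803). Its mean was 69.8 ± 8.83 CPM in WT and 99.6 ± 17 in PERK-cKO after polyclonal stimulation, and 76.6 ± 15.1 and 51.3 ± 8.5 after allogeneic stimulation (SD, n = 3 each). Ndufaf4 followed at -0.91 (SE 0.175, adjusted p = 0.000304), and its polyclonal PERK-cKO mean of 407 ± 66.5 CPM stood above the other 3 group means of 246 to 318. Ndufv1 gave -0.72 (SE 0.178), Cox5a -0.69 (SE 0.147), Uqcrc1 -0.60 (SE 0.114) and Ndufa10 -0.58 (SE 0.116). In Cox5a, Uqcrc1 and Ndufa10, each PERK-cKO polyclonal library had more than the highest WT library of either stimulation except that WT allogeneic replicate 2 of Cox5a, at 318 CPM, exceeded the lowest PERK-cKO library, at 316. Cyc1 was the least stable at -0.55 (SE 0.178, adjusted p = 0.0195): it lost the call without WT polyclonal replicate 1, PERK-cKO allogeneic replicate 2 or 3, or WT allogeneic replicate 1 or 3, with values from -0.51 to -0.38. The other 6 were called in every fit that left out 1 library.

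Scaling to T cell markers moved the median interaction of all genes to 0.50 and the share of calls that were higher from 49.2% to 89.5%. Of the 7 genes only Ndufaf6 then remained called below 0, at -0.60 (adjusted p = 0.0424), and 7 others were called above 0, as many as with Thy1 left out of the markers. Their distance from the median, -1.11 to -0.57 here, cannot change with a common factor and is no sign of stability. Since Y-linked counts mark the WT allogeneic group alone, sex and genotype within allogeneic stimulation cannot be told apart.

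**Figure D3:**
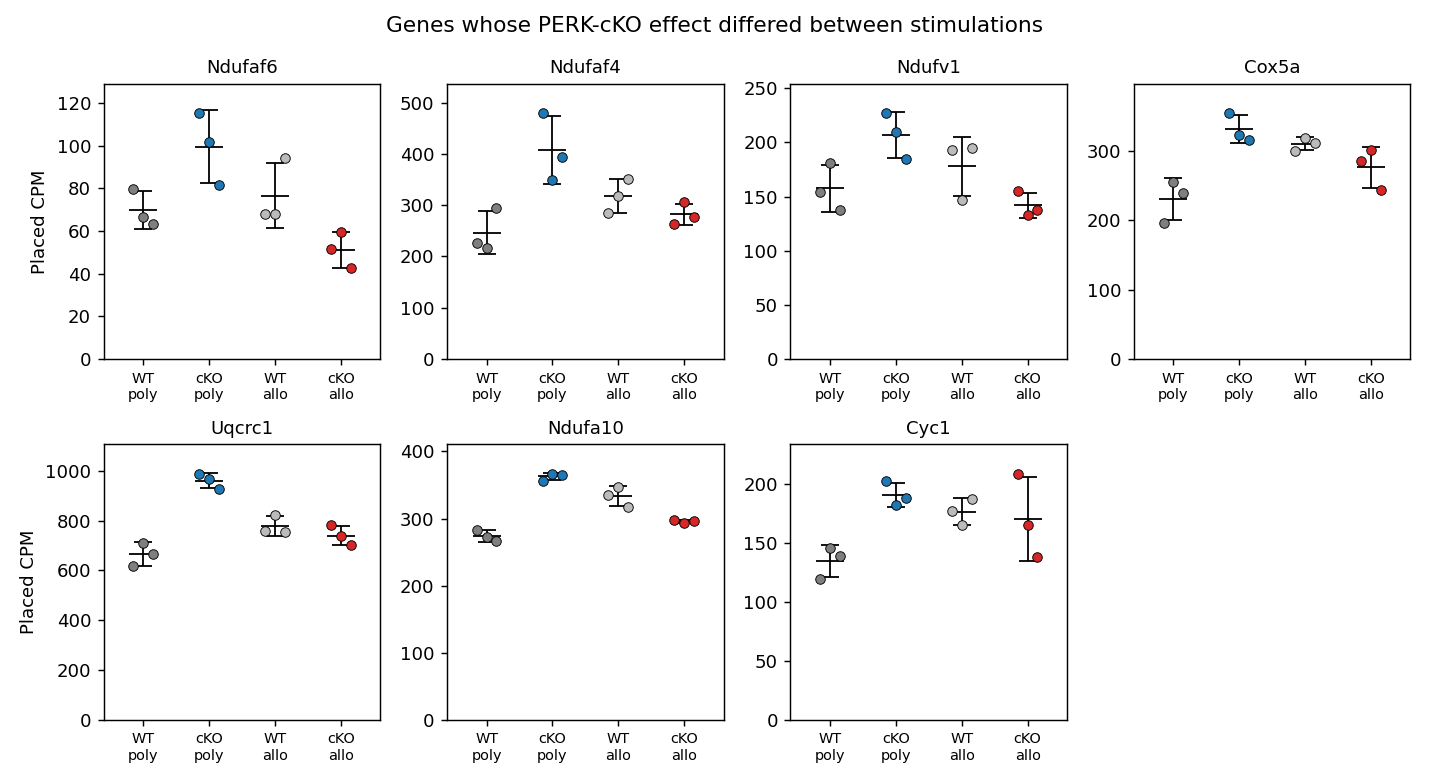
Placed CPM in each of 12 libraries (points) with the mean and SD of 3 (bars) for the 7 genes called in the interaction. In each gene the PERK-cKO polyclonal mean was the highest, and in Ndufaf6 the PERK-cKO allogeneic mean of 51.3 CPM was the lowest.

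Sums over the genes of a complex are given as a description, with no test. Complex III genes summed to 761, 884 and 828 CPM in WT and 1214, 1178 and 1142 in PERK-cKO after polyclonal stimulation, and to 953, 1002 and 956 in WT and 998, 918 and 853 in PERK-cKO after allogeneic stimulation. The polyclonal groups were apart and the allogeneic groups overlapped. The 2 complex I assembly factors summed to 283 to 358 CPM in WT and 450 to 595 in PERK-cKO after polyclonal stimulation. Complex I subunits overlapped in both stimulations, and Uqcrc1 alone makes up most of the complex III sum. Likewise Cox5a makes up most of the complex IV sum, and Ndufaf4 most of that of the complex I assembly factors. Ndufa4, also of complex IV, had a lower mean in PERK-cKO after polyclonal stimulation, 26.9 against 43.1 CPM in WT.

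**Figure D4:**
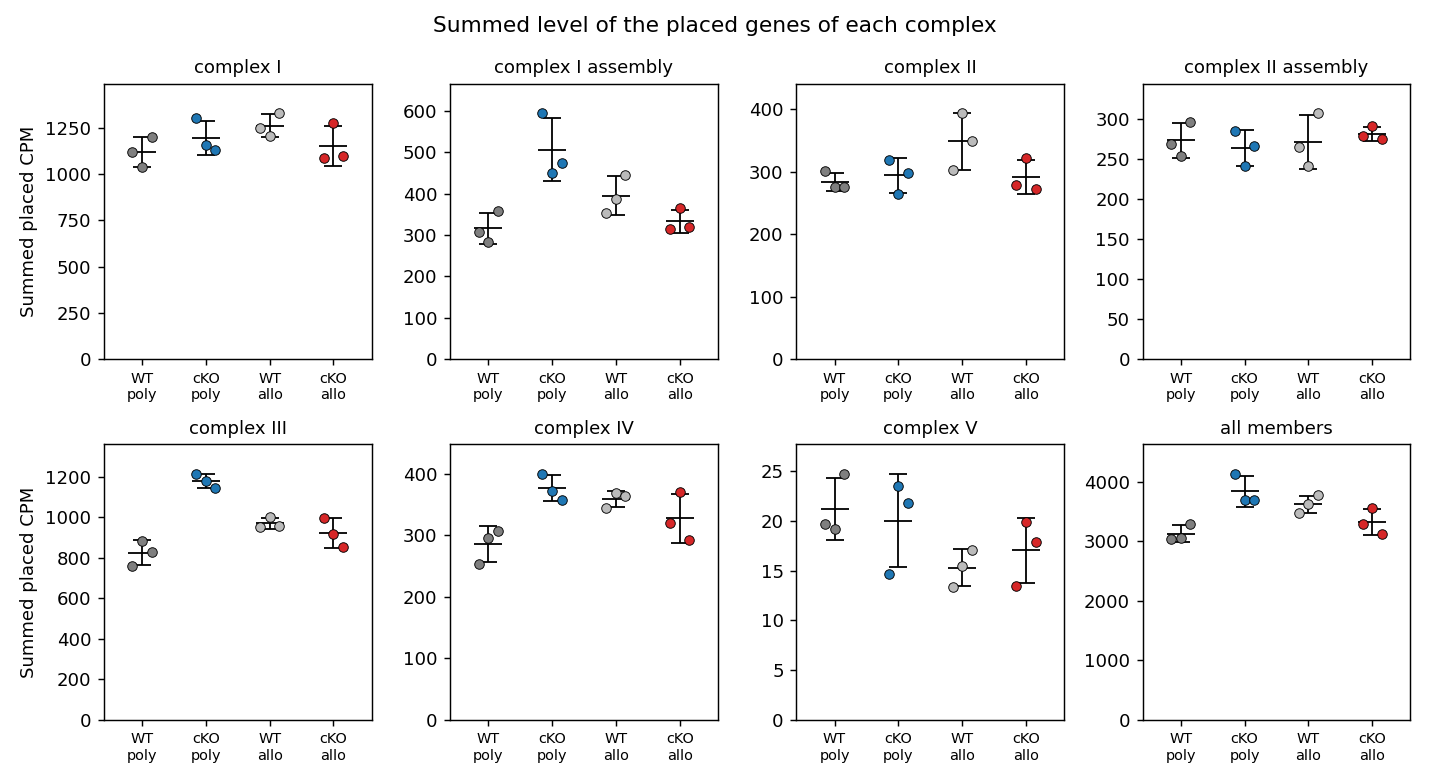
Summed placed CPM per complex in each library (points), with mean and SD of 3 libraries (bars). The PERK-cKO polyclonal libraries stand above the WT polyclonal ones for complex III (1142 to 1214 against 761 to 884 CPM), complex IV and the complex I assembly factors. Uqcrc1, Cox5a and Ndufaf4, in that order, make up most of these sums.

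Allogeneic and polyclonal stimulation were next compared within each genotype, which also compares 4 with 3 days of culture and the presence of APCs. In WT, Y-linked counts were found after allogeneic stimulation only, so the sex of animals or APCs cannot be told apart from stimulation there. In WT cells 6 of 22 genes rose and 4 fell, while 24.6% of all 3983 genes tested rose and 24.2% fell. In PERK-cKO cells 3 rose and 8 fell, against 27.6% and 23.8% of 4157 genes. Median log2 fold changes were 0.06 in WT and -0.26 in PERK-cKO, against -0.01 and 0.00 over all genes tested. Over all genes tested, 48.8% were called in either direction in WT and 51.4% in PERK-cKO. Cox4i2 is among the genes that fell in both counts, and it passed the filter on low counts through its polyclonal libraries alone. The WT count fell to 6 without WT polyclonal replicate 1 or 2, and the PERK-cKO count to 7 without PERK-cKO polyclonal replicate 2.

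Uqcrc2 fell in both genotypes. It was read over 81 and 122 bp, which were 2.0% and 2.8% of the entries listed as Gm44901 and Gm45137. It had 17.1, 12.5 and 12.8 CPM in WT allogeneic libraries and 7.39, 15.8 and 12.3 in PERK-cKO, below all polyclonal libraries given above. Its changes were -0.81 in WT (SE 0.238, adjusted p = 0.0124) and -1.14 in PERK-cKO (SE 0.287, adjusted p = 0.00276). For Cox4i2 the levels are given as a description, since a gene kept through the group where it is high had to differ. It had 7.98, 10.1 and 8.94 CPM in WT polyclonal and 1.27, 0 and 3.21 in WT allogeneic libraries, where its counts were 2, 0 and 6. In PERK-cKO it had 8.01, 23.5 and 13.5 CPM after polyclonal and 4.78, 2.54 and 6.17 after allogeneic stimulation, from 11, 5 and 10 counts. Macrophage, basophil and B cell marker sums were higher in the allogeneic libraries, as given above, and their part in these values was not tested.

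Ndufa5 rose in both genotypes. It had 123, 89.7 and 170 CPM in WT polyclonal and 172, 192 and 223 in WT allogeneic libraries, a log2 fold change of 0.59 (SE 0.184, adjusted p = 0.0181). In PERK-cKO it had 152, 121 and 137 CPM after polyclonal and 140, 256 and 157 after allogeneic stimulation, where the groups overlapped and the change was 0.42 (SE 0.173, adjusted p = 0.0484). The PERK-cKO call was lost without polyclonal replicate 2 or 3 or allogeneic replicate 2, down to 0.11, and the WT call without polyclonal replicate 2 or allogeneic replicate 3, down to 0.38. Under scaling to T cell markers both calls were lost, with 0.085 in WT (adjusted p = 0.704) and 0.39 in PERK-cKO (adjusted p = 0.0788), while with Thy1 left out both passed, at 0.46 and 0.77.

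In WT cells Sdhaf3 and Ndufb4, an accessory subunit of complex I, also fell. Sdhaf3 had 70.8, 76.6 and 119 CPM after polyclonal and 45.7, 43.5 and 56.1 after allogeneic stimulation, with no overlap and a log2 fold change of -0.90 (SE 0.201, adjusted p = 0.00222). In PERK-cKO it had 74.8, 72.4 and 71.1 against 53.4, 62.1 and 63.5 CPM, and -0.30 did not pass (adjusted p = 0.0873). Ndufb4 had 25.5, 29.2 and 27.3 CPM in WT polyclonal and 18.4, 15.5 and 16 in WT allogeneic libraries, with a change of -0.75 (SE 0.216, adjusted p = 0.0113). The PERK-cKO libraries of Ndufb4 overlapped, at 27.2, 33.2 and 18.2 against 18.7, 29.5 and 17.3 CPM.

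The increases in WT cells were smaller. They were 0.40 for Cox5a, 0.36 for Cyc1, 0.34 for Ndufaf4, 0.27 for Sdhb and 0.25 for Ndufa10 on the log2 scale. Cox5a kept its call in every fit without 1 library. Cyc1 lost it without WT polyclonal replicate 1 (0.28, adjusted p = 0.0784). Ndufaf4 lost it without polyclonal replicate 1 or 2 or allogeneic replicate 2 or 3, Ndufa10 without any polyclonal replicate or allogeneic replicate 2, and Sdhb without any polyclonal replicate or allogeneic replicate 2 or 3, with values from 0.25 to 0.35, 0.23 to 0.27 and 0.18 to 0.30. Sdhb was read over 2 entries, and with entries of at least 200 bp of overlap alone its change was -0.17. Under scaling to T cell markers, which moved the median of all genes to -0.52, all 5 were negative, none of the 22 genes rose and 15 fell. With Thy1 left out the median was -0.14, all 5 were positive, at 0.13 to 0.28, and only Cox5a of them was called.

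In PERK-cKO cells the 8 decreases included the 6 genes Ndufaf6, Ndufaf4, Ndufv1, Uqcrc1, Ndufa10 and Cox5a. Their log2 fold changes were -0.95 (SE 0.161), -0.54 (SE 0.11), -0.55 (SE 0.113), -0.38 (SE 0.0814), -0.30 (SE 0.0858) and -0.26 (SE 0.0993). All 6 stayed negative and called under scaling to T cell markers, where the median of all genes was -0.03, but with Thy1 left out that median was 0.35, 7 genes rose, 3 fell, and of the 6 only Ndufaf6 remained called, at -0.61, while Cox5a and Ndufa10 were above 0. Cox5a lost its call without PERK-cKO polyclonal replicate 1 or 2 or allogeneic replicate 1 or 3 (-0.28 to -0.17), while the other 5 kept theirs in every such fit. Ndufa4 had 26.9, 65.1 and 41.3 CPM in PERK-cKO allogeneic libraries and rose by 0.70 (SE 0.269, adjusted p = 0.0376), and Ndufv2 had 146, 225 and 147 and rose by 0.47 (SE 0.176, adjusted p = 0.0311). Both lost the call without PERK-cKO polyclonal replicate 2 or 3 or allogeneic replicate 2, down to 0.30 and 0.24. Under scaling to T cell markers Ndufa4 no longer passed (0.67, adjusted p = 0.0542), which left Ndufv2 as the only increase. In WT the same 2 genes had values of 0.01 and -0.02, with Ndufa4 at 40.6, 44.0 and 48.1 CPM and Ndufv2 at 170, 163 and 218 CPM after allogeneic stimulation.

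**Figure D5:**
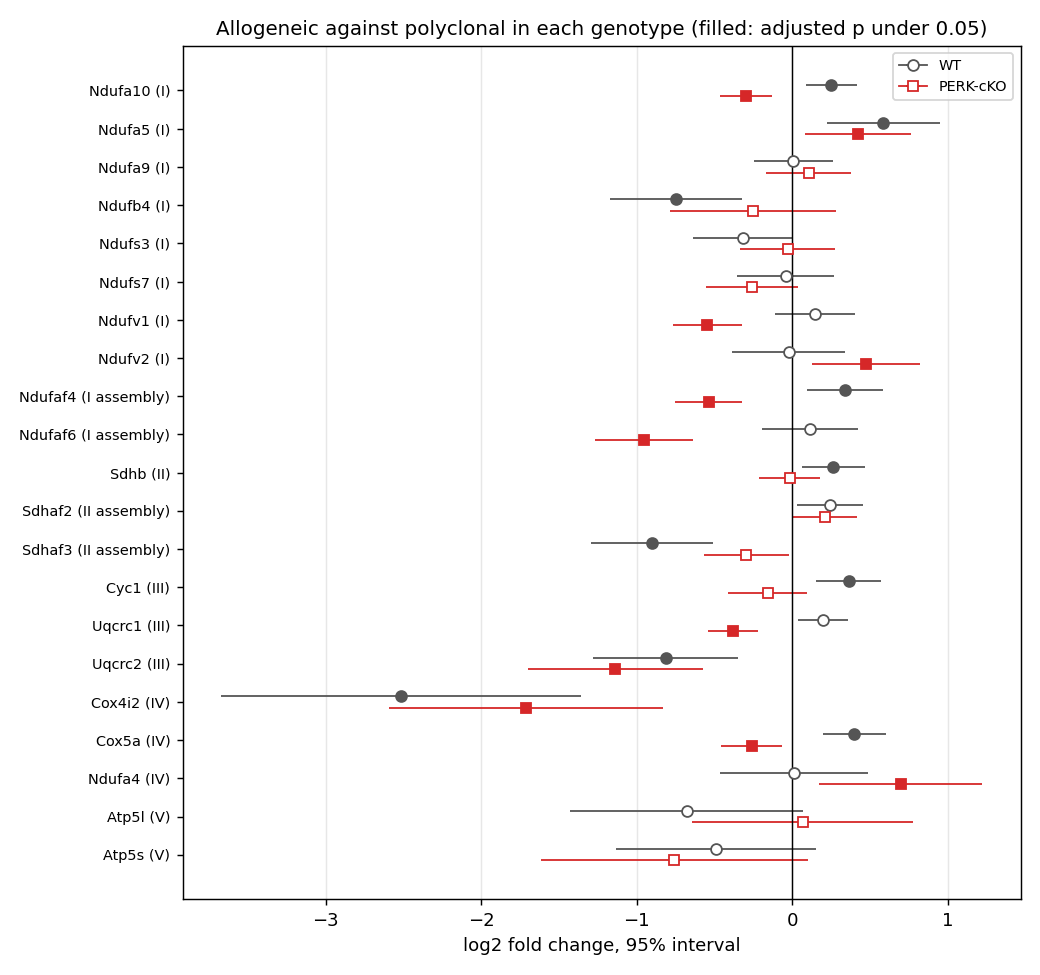
Log2 fold changes of allogeneic against polyclonal stimulation with 95% intervals in WT (circles) and PERK-cKO cells (squares), filled where the adjusted p was under 0.05. Uqcrc2 lies below 0 in both genotypes, as does Cox4i2, which passed the filter through its polyclonal libraries alone, while Cox5a, Ndufa10 and Ndufaf4 were called above 0 in WT, a sign that turned under scaling to T cell markers, and below 0 in PERK-cKO, a sign that turned for Cox5a and Ndufa10 when Thy1 was left out of those markers.

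Complex V and the complex II assembly factors had no call in either comparison of genotypes. Atp5l, the g subunit of ATP synthase, had 8.51, 9.57 and 12.1 CPM in WT and 5.79, 7.24 and 9.35 in PERK-cKO after polyclonal stimulation, and 5.72, 4.17 and 9.09 against 8.25, 7.63 and 7.4 after allogeneic stimulation. Atp5s, encoding coupling factor B, had 11.2, 9.57 and 11.6 against 8.90, 13.9 and 10.4, and 6.99, 9.52 and 6.95 against 2.17, 8.14 and 9.87. At such depth only large changes could be seen: the 95% interval of the allogeneic change of Atp5s ran from -1.19 to 0.66. Sdhaf2, which attaches the flavin to complex II, was measured far more deeply, with 198, 177 and 177 against 210, 168 and 194 CPM and 218, 198 and 251 against 225, 228 and 211. Its log2 fold changes were 0.04 and -0.0037, with intervals from -0.16 to 0.24 and from -0.21 to 0.21. Cox7a1, Cox6b1 and Atp5g1 had 28, 41 and 32 counts over 12 libraries and were not tested, and Cox4i2 was not tested between genotypes after allogeneic stimulation.

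Related genes were counted from lists chosen with earlier results of these data known. Their counts are to be read against the shares over all genes tested, 32.0% called after polyclonal stimulation, 33.0% after allogeneic stimulation, 34.0% for the interaction (16.7% higher and 17.2% lower), and 48.8% and 51.4% between stimulations in WT and PERK-cKO. Of 4 tested regulators of mitochondrial biogenesis, 2 rose in PERK-cKO after polyclonal stimulation: Pprc1, a coactivator, by 0.58 (SE 0.0881) and Nrf1, the factor named for its sites in respiratory gene promoters, by 0.55 (SE 0.0813). After allogeneic stimulation 1 of 5 tested fell, Nrf1, by 0.35 (SE 0.0891), and the interaction of Nrf1 was -0.91. Of 6 tested enzymes of the tricarboxylic acid cycle, 2 rose after polyclonal stimulation, Ogdh by 0.59 and Cs, citrate synthase, by 0.52, and none was called after allogeneic stimulation by edgeR or DESeq2, with 1 lower at an unadjusted p under 0.05. Of 5 other assembly factors, 1 rose after polyclonal stimulation, Cox10, which works in the synthesis of heme A for cytochrome c oxidase, by 0.68 (SE 0.116), and 0 of the 5 were called after allogeneic stimulation by edgeR or DESeq2, with 0 at an unadjusted p under 0.05. Of the 6 tested mitochondrially encoded subunits, 1 rose after polyclonal stimulation, mt-Cytb, by 0.37, and 1 fell after allogeneic stimulation, mt-Nd2, by 0.49. In the comparison of stimulations 5 of these 6 were higher after allogeneic stimulation in each genotype by edgeR, and 5 in WT and 4 in PERK-cKO by DESeq2, with medians of 0.83 in WT and 0.51 in PERK-cKO. Counts of the lists are under the main scaling. Scaling to T cell markers moved the median of all genes to -0.52 in WT between stimulations, beyond the size of the mt-Co2 change there, 0.45. After polyclonal stimulation the median moved to -0.32, near the size of the mt-Cytb change. With Thy1 left out these medians were -0.14 and -0.01. Of 9 tested glycolytic genes, 7 fell and none rose in PERK-cKO after polyclonal stimulation, with a median of -0.55, and 3 fell after allogeneic stimulation, with a median of -0.08. Their interaction was called higher for 3 and lower for 1 by edgeR, and for 4 and 1 by DESeq2.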

How the data were processed

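RNA-Seq of stimulated T cells was analysed in 12 libraries. The authors deposited raw counts made with featureCounts 2.0.1 on the exons of GENCODE M27 (release for GRCm39), while the processing notes name the build mm10 (GRCm38); the aligner is not given in the sources used here. Laid on GRCm38 as printed, many entries overlie exons of a neighbouring gene; 13384 of 53762 entries, with 49.8% of counts, were placed on GRCm38 gene models. No coordinate was converted, and a placed entry can hold reads from outside the exons it overlies. 1 member enters the counts, medians and sums but is not reported here by name or drawn by itself. Members and lists were chosen with earlier results of these data known.

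Counts were filtered by filterByExpr, scaled by TMM and tested with edgeR 4.0.16 (glmQLFit, glmQLFTest; R 4.3.3), with Benjamini-Hochberg adjustment over all genes tested. CPM are placed counts over TMM-scaled library size. Each comparison used its 6 libraries, and the interaction all 12. SE is the log2 fold change divided by the root of F, and 95% intervals are normal intervals from it. The test was run on simulated counts with changes larger than most of those called here, so smaller changes were not checked. Library values are printed for up to 6 called members a comparison, by size of change, whose groups did not overlap and whose mean log2 CPM reached 3 (the interaction has no overlap criterion), for the 2 members with most counts in each complex, and for Ndufv2, added after its values were seen. Alternatives were DESeq2 1.42.0, RLE factors, library size only, T cell marker scaling, the same with Thy1 left out (added after the data were seen), whole-table factors, 2 filters, a replicate block, all 12 libraries, each library left out, 200 bp overlap, entries as listed, and a log2 fold change beyond 0.5.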

Additional observations from a re-analysis of the deposited data

Results flagged for a closer look

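The effect of PERK loss differed between stimulations, by edgeR's interaction test, for 7 of the 22 nuclear oxidative phosphorylation genes tested, while 34.0% of all 4400 genes tested were called, 17.2% in the same direction. Under scaling to T cell markers only Ndufaf6 of the 7 remained called below 0, and 7 other genes were called above 0, with or without Thy1 among the markers. The interaction was -1.09 for Ndufaf6, -0.91 for Ndufaf4, -0.72 for Ndufv1, -0.69 for Cox5a, -0.60 for Uqcrc1, -0.58 for Ndufa10 and -0.55 for Cyc1 on the log2 scale. In the related lists it was called for 2 of 5 biogenesis regulators tested, Nrf1 (-0.91) and Pprc1 (-0.70), and for 1 of 5 other assembly factors, Cox10 (-0.99). It was called for 3 of 6 tricarboxylic acid cycle enzymes, Cs (-0.64), Ogdh (-0.54) and Idh3b (-0.31), and for 2 of 6 mitochondrially encoded subunits, mt-Nd2 (-0.77) and mt-Cytb (-0.52). Of 9 glycolytic genes it was called for 4, at 0.91 for Pfkm, 0.47 for Hk1, 0.46 for Hk2 and -0.50 for Pfkl. T cell marker scaling moved the median interaction of all genes from 0.01 to 0.50, a shift that exceeds the size of the Idh3b value and is close to those of Ogdh, mt-Cytb and Pfkl. Groups of 3 libraries were too small for a test of single outlying libraries.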

How the results depend on the processing

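Numbers of called genes among those tested were compared over the alternatives. PERK-cKO against WT after allogeneic stimulation gave 1, and 0 with T cell marker scaling, 13 with Thy1 left out of the markers, 2 with no filter, 3 with entries as listed and 0 to 3 without 1 library. After polyclonal stimulation 8 became 5 with 200 bp overlap, 3 with entries as listed and 5 beyond 0.5, and 6 to 9 without 1 library. The interaction gave 7, 3 with entries as listed and 6 to 9 without 1 library. Allogeneic against polyclonal in WT gave 10, 6 with 200 bp overlap, 6 as listed, 5 beyond 0.5 and 6 to 11 without 1 library; in PERK-cKO it gave 11, 6 beyond 0.5 and 7 to 11 without 1 library. Entries as listed hold reads of other places, and fewer genes were tested with them or with 200 bp overlap.

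Of the genes reported by name and called in at least one of the fits compared, direction turned with T cell marker scaling for Sdhaf2 (-0.29) and Sdhb (-0.29) in the polyclonal comparison, Sdhaf2 (0.43) in the interaction, and in WT between stimulations for Cox5a (-0.10), Cyc1 (-0.14), Ndufa10 (-0.25), Ndufa9 (-0.49), Ndufaf4 (-0.16), Ndufaf6 (-0.39), Ndufv1 (-0.35), Sdhb (-0.24) and Uqcrc1 (-0.30). With Thy1 left out, a scaling added after the data were seen, it turned in the allogeneic comparison for Cox5a (0.30), Cyc1 (0.42), Ndufa10 (0.30), Ndufa5 (0.38), Ndufa9 (0.37), Ndufaf4 (0.29), Ndufv2 (0.38), Sdhaf2 (0.47) and Uqcrc1 (0.40), in the interaction for Sdhaf2 (0.44) and between stimulations in PERK-cKO, where the median of all genes was 0.35, for Cox5a (0.085), Ndufa10 (0.052) and Sdhb (0.33). Turns of genes called in neither fit are not listed. It turned with 200 bp overlap for Sdhb in WT (-0.17). With entries as listed it turned for Atp5l (-0.78 allogeneic, -0.73 interaction, 0.38 in WT between stimulations), Ndufv1 (-0.44 polyclonal, 1.06 in PERK-cKO between stimulations), Cyc1 (2.36 for the interaction) and Sdhb (-1.27 in WT between stimulations).

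Same-numbered libraries did not deviate together (correlations -0.0909 to 0.0867), so the replicate numbers do not pair them. The replicate block gave 3 calls in the allogeneic comparison in place of 1, 9 in the polyclonal, 7 in the interaction, and 11 and 8 between stimulations in WT and PERK-cKO. Depth limits Cox4i2, Atp5l, Atp5s and Uqcrc2, which had the fewest placed counts of the genes tested.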
